A study of Mus musculus with 48 samples.

Results

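The genes described here are 10 members of the AP-1 and stress transcription factor family, namely *Fos*, *Fosb*, *Fosl1*, *Fosl2*, *Jun*, *Junb*, *Jund*, *Atf3*, *Maff* and *Batf*. They were taken by name from the 24973 genes of a table of normalized read counts, and all 10 were found there. Their RNA was measured in 4 cell types of the neurovascular unit (NVU), endothelial cells, pericytes, astrocytes and microglia, sorted from the brains of adult male wild-type C57BL/6 mice aged 12 to 15 weeks. All mice had a filament occlusion of the middle cerebral artery for 1 h followed by 23 h of reperfusion (tMCAO), so the groups were the ischemic (ipsilateral) and the control (contralateral) hemisphere of the same operated mice, and no sham-operated brains were among the libraries. There were 8 groups of 6 libraries, and each library came from a pool of 3 to 4 mice that had survived with moderate to severe deficits. Cells of both hemispheres were freed with enzymes at 37 °C before flow cytometry. All tissue was first digested with papain and filtered. Vessel fragments, the source of endothelial cells and pericytes, were then homogenized and digested further at 37 °C with collagenase and dispase. The flow-through with the glial cells was meanwhile kept on ice. Microglia were gated as CD45 low and CD11b positive, astrocytes as ACSA2 high, endothelial cells as VECAD positive and pericytes as NG2 and PDGFRβ double positive.

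AP-1 is a dimer of basic leucine zipper proteins. JUN proteins pair with each other or with FOS proteins, and the dimers bind TGANTCA and related sites in promoters and enhancers. *Fos*, *Fosb*, *Jun*, *Junb* and *Atf3* are immediate early genes, whose transcription starts within minutes of growth factors, cytokines, calcium entry or cell stress and needs no new protein. *Fosl1* and *Fosl2* encode the *Fos*-related antigens FRA1 and FRA2, which usually follow later and last longer. JUND is the steadier JUN protein of resting cells. ATF3 is a stress-induced relative that often represses, MAFF is a small MAF protein without a transactivation domain, and BATF pairs with JUN proteins in immune cells. In stroke the family is known for its early induction in injured brain tissue, and enzymatic dissociation of tissue at body temperature is known to induce the same genes.

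The reads counted on genes, estimated from the spacing of low normalized counts, ranged from 4.9 to 17.1 M per library with a median of 11.9 M, and 1 read was worth 0.669 to 2.362 normalized counts. Titles and table columns disagreed for 12 ipsilateral libraries, where a library titled as microglia has a column named for pericytes and the reverse. The column names were used: in the libraries so named as pericytes, *Des* was 13587 to 32844, against at most 480 in libraries titled but not named pericytes, and all 16 defining markers of the 4 cell types were higher in each library of their own type than in any other library. Replicates 1 to 4 differed from replicates 5 and 6 in RNA of other cells. The summed level of 4 microglial markers in contralateral endothelial libraries was 3218 to 7629 in replicates 1 to 4 and 192 to 366 in replicates 5 and 6, and in ipsilateral pericyte libraries it was 6025 to 28388 and 267 to 277, against at least 91419 in microglia. Astrocyte libraries also held much oligodendrocyte RNA, with 8 markers summing to 48636 to 392591 in the contralateral and 84734 to 453163 in the ipsilateral libraries.

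Among the FOS genes, on genome build GRCm38, *Fos* (ENSMUSG00000021250) lies at chr12:85473890-85477273 on the forward strand, *Fosb* (ENSMUSG00000003545) at chr7:19302696-19310051 on the reverse strand, *Fosl1* (ENSMUSG00000024912) at chr19:5447703-5455945 on the forward strand and *Fosl2* (ENSMUSG00000029135) at chr5:32135801-32157842 on the forward strand. Of the JUN genes, *Jun* (ENSMUSG00000052684) lies at chr4:95049034-95052222 and *Junb* (ENSMUSG00000052837) at chr8:84976910-84978718, both on the reverse strand, and *Jund* (ENSMUSG00000071076) at chr8:70698949-70700616 on the forward strand. *Atf3* (ENSMUSG00000026628) lies at chr1:191170296-191218039 on the reverse strand, *Maff* (ENSMUSG00000042622) at chr15:79347541-79359072 and *Batf* (ENSMUSG00000034266) at chr12:85686669-85709087, both on the forward strand. All 10 are protein-coding, and values are sums over a gene's exons. In GENCODE release M21, 1163 exon bases of *Fosl1* also belong to *Ccdc85b*, 877 of *Jund* to Gm11175, 232 of *Jun* to *Junos* and 173 of *Junb* to *Prdx2*, each on the opposite strand, and the library kit does not mark strand. In the coordinates of the table itself *Ccdc85b* starts after the end of *Fosl1*.

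*Fos*, *Fosb* and *Jun* are the members called lower in ipsilateral microglia in the main test, and *Atf3* was called there with a block for the replicate number, so the 120 bases upstream of their start sites are shown, 5′ to 3′ on the strand of the gene, from RefSeq on GRCm38.p6. Capitals mark TGACG, the core of a cAMP response element, and TGACNTCA, the variant of the AP-1 site known from the *Jun* promoter, on either strand. The stretches lie at chr12:85473770-85473889 for *Fos*, chr7:19310046-19310165 for *Fosb*, chr4:95052223-95052342 for *Jun* and chr1:191183334-191183453 for *Atf3*, whose RefSeq start site lies inside the longer gene given above.
Fos: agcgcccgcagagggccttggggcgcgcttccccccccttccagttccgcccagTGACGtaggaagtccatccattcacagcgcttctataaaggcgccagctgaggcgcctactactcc
Fosb: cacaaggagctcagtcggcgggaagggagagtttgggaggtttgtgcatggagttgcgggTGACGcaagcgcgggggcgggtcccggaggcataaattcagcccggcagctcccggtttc
Jun: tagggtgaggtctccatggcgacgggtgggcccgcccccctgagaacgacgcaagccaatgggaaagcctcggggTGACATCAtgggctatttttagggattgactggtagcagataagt
Atf3: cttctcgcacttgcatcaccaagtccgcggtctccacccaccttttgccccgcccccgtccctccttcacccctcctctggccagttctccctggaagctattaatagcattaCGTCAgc
Over 250 bases upstream, TGACG on either strand was found in 7 of 11 stretches of members, those of *Fos*, *Fosb*, *Junb*, *Atf3*, *Maff* and *Batf*, and in 17.8% of 32851 stretches of all genes. Of the *Fos* matches, 1 lay at -66 to -62 from the start site and 1 further upstream, outside the bases shown, at -129 to -125. TGACNTCA was found for *Jun*, at -45 to -38, and for *Maff*, and in 7.49% of all stretches. The full element TGACGTCA, which holds TGACG and is a form of TGACNTCA, was found among members for *Maff* alone and in 1.55% of all stretches. Within the same 250 bases TGANTCA was found in none of the 11 and in 6.75% of all, and the CArG box in none and in 1.47%. Bases further upstream were not searched, so sites there would be missed. The TATA sequence TATAAA was found for *Fos*, at -33 to -28, and in 12.4% of all stretches. Of the 10 members, 9 had an entry, *Maff* with 3 start sites, and *Fosl1* was not matched. The *Jund* stretch, at chr8:70697489-70697738, does not adjoin the gene start given above, at 70698949. Its lack of matches therefore does not describe the bases just upstream of that start.

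In the contralateral hemisphere, *Fos* was among the most abundant RNAs of every cell type but astrocytes. It ranked as gene number 2 of each of the 6 contralateral pericyte libraries, with 120440 to 202152 normalized counts and a median of 166241. In contralateral microglia it ranked 9 to 16, with 50056 to 101622 normalized counts and a median of 69861.5, and in endothelial cells 7 to 30, with 28416 to 86350 and a median of 56453. Contralateral astrocytes held the least, 3088 to 14630 normalized counts with a median of 9664, at ranks 75 to 533, and their range overlapped with no other cell type. All 10 members together took 1.563% to 2.6% of the normalized counts of contralateral pericyte libraries, 1.058% to 2.75% in microglia, 0.531% to 1.549% in endothelial cells and 0.075% to 0.288% in astrocytes. Contralateral pericytes of replicates 5 and 6, which held little microglial RNA, had 132273 and 120440 normalized counts of *Fos*, the lowest of that group.

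**Figure D1:**
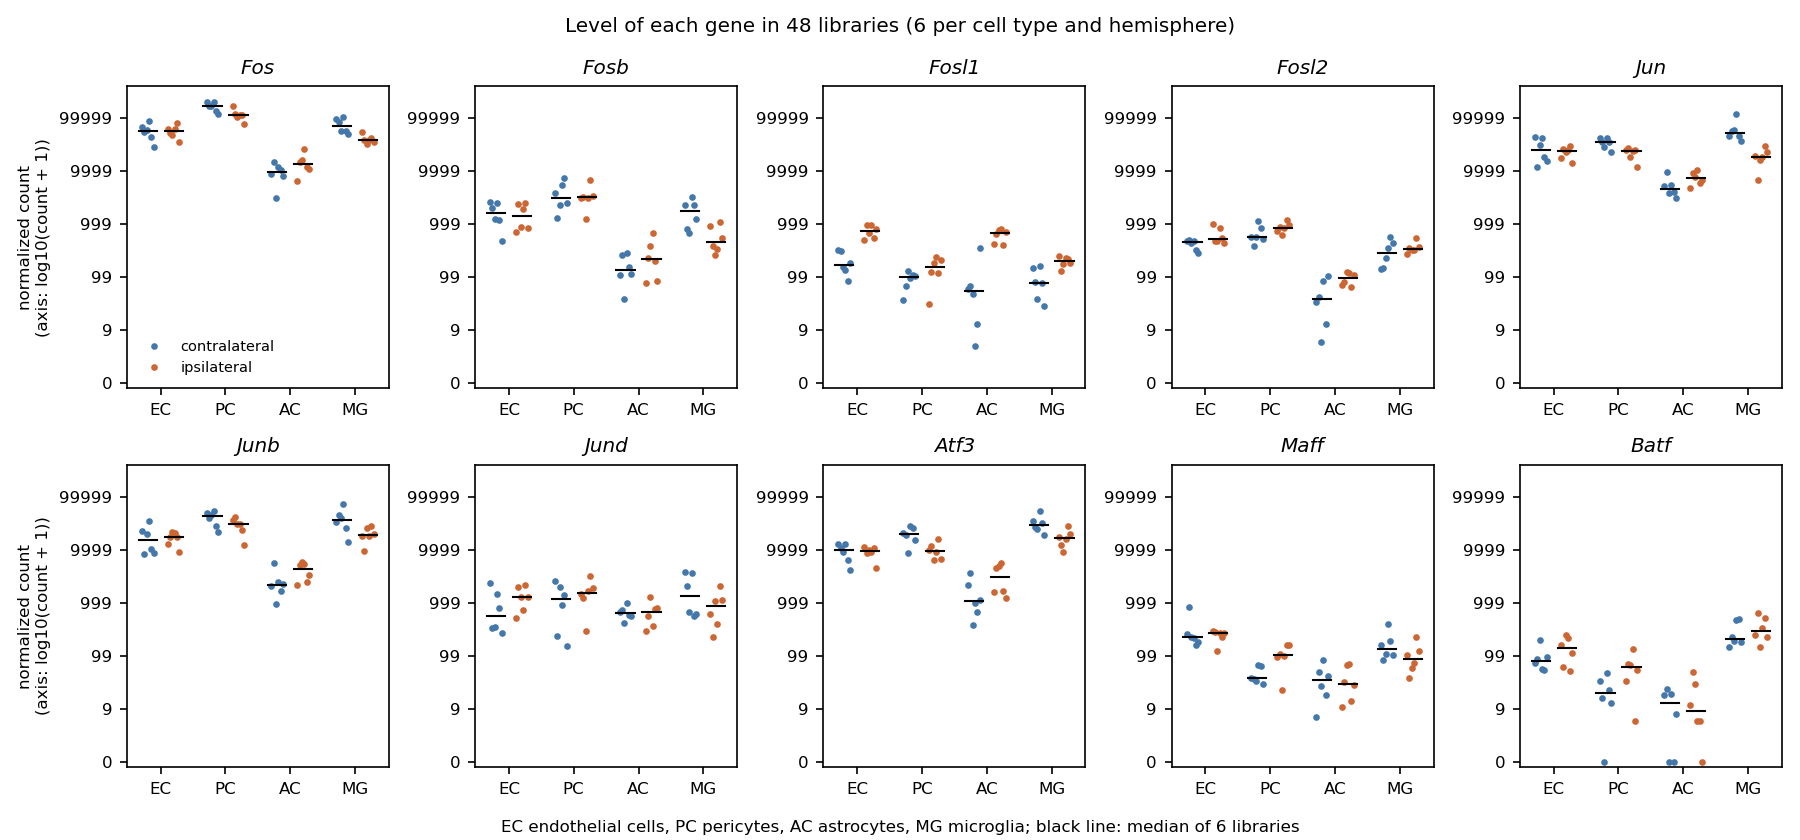
Normalized counts of the 10 genes in 48 libraries, on a log axis of count + 1, by cell type (EC endothelial cells, PC pericytes, AC astrocytes, MG microglia) and hemisphere, with the median of 6 libraries as a black line. Fos reached 202152 in contralateral pericytes, whereas Batf was at 0 in 2 contralateral astrocyte libraries.

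Levels were compared between cell types over the contralateral libraries by limma across 15003 genes, at an adjusted p of at most 0.05. Vascular and glial cells also differed in their digestion, and its part in the differences between them was not tested. Endothelial cells and astrocytes differed in 9 of 10 members, all higher in endothelial cells, while 50.1% of all genes differed in either direction. Astrocytes and microglia differed in 8 members, all higher in microglia, with 51.7% of all genes. Pericytes and astrocytes differed in 6 members, all higher in pericytes, with 46.3% of all genes. The other pairs of cell types gave 5 members for endothelial cells against pericytes, 5 for pericytes against microglia and 3 for endothelial cells against microglia, with 35.4%, 48.9% and 42.6% of all genes. The share of members that differed was therefore near or below that of all genes for endothelial cells against microglia and for pericytes against microglia, and above it for the 3 comparisons with astrocytes and for endothelial cells against pericytes.

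The order of the cell types was not the same for each member. For *Fos* it was pericytes, microglia, endothelial cells and astrocytes, and only the neighbours microglia and endothelial cells did not pass the test (endothelial cells minus microglia -0.42 on the log2 scale, SE 0.29, limma adjusted p = 0.263). Pericytes exceeded microglia in *Fos* by 1.18 (SE 0.29, limma adjusted p = 0.000632). *Fosb* followed the same order at far lower counts, with medians of 3114.5, 1748.5, 1609.5 and 134.5 normalized counts. For *Fosb* only astrocytes were separated from the others, and the limma adjusted p of pericytes against microglia was 0.077, or 0.0362 with the replicate number as a block, and that of endothelial cells against pericytes 0.0817, or 0.0373 with the block.

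*Jun* and *Atf3* had their highest contralateral levels in microglia. *Jun* had 37033 to 116961 normalized counts in contralateral microglia (median 51767), 22972 to 41360 in pericytes (median 35105), 12007 to 42930 in endothelial cells (median 24367) and 3117 to 9614 in astrocytes (median 4567.5). Pericytes lay below microglia (log2 of pericytes minus microglia -0.75, SE 0.31, limma adjusted p = 0.0426), although the ranges overlapped, and endothelial cells and pericytes did not pass the test for *Jun* (adjusted p = 0.233). *Atf3* had 19363 to 53399 normalized counts in microglia, 8621 to 28195 in pericytes, 4184 to 12966 in endothelial cells and 375 to 3610 in astrocytes. *Atf3* was higher in microglia than in endothelial cells (endothelial cells minus microglia -1.78, SE 0.40, limma adjusted p = 0.000271), while pericytes and microglia did not pass the test (adjusted p = 0.136). *Junb* was level in pericytes and microglia within its error (log2 difference 0.14, SE 0.38, limma adjusted p = 0.794) and lower in endothelial cells than in either.

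The members with low counts also differed by cell type. *Batf*, a factor of immune cells, had 144 to 496 normalized counts in contralateral microglia, 52 to 194 in endothelial cells, 0 to 46 in pericytes and 0 to 23 in astrocytes. It was lower in pericytes than in microglia (log2 of pericytes minus microglia -4.18, SE 0.84, limma adjusted p = 4.6e-05). *Maff* was highest in endothelial cells, with 159 to 840 normalized counts, against 83 to 405 in microglia, 29 to 65 in pericytes and 6 to 84 in astrocytes, and its difference between endothelial cells and pericytes was 2.62 (SE 0.53, limma adjusted p = 9.3e-05). For *Maff* endothelial cells and microglia did not pass the test (0.8, SE 0.53, limma adjusted p = 0.24). *Fosl2* was close in pericytes (median 556.5), endothelial cells (455.5) and microglia (287.5), where only pericytes against microglia passed the test, and was 37 in astrocytes. *Fosl1* had medians of 169 in endothelial cells, 98 in pericytes, 77 in microglia and 52.5 in astrocytes, and only endothelial cells against astrocytes passed (2.13, SE 0.57, limma adjusted p = 0.00162). For *Jund* no pair of cell types passed, with adjusted p from 0.143 to 0.953 and contralateral values that spread within a group from 150 to 2539 in pericytes.

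The family's make-up was compared per kb of exon, since counts of different genes depend on their length. *Fos* took 60.1% to 68.0% of the members' summed level per kb in contralateral pericytes, 47.4% to 63.7% in endothelial cells, 39.0% to 62.7% in astrocytes and 30.9% to 46.2% in microglia. The shares of pericytes and microglia did not overlap. *Jun* came next in endothelial cells, with a mean of 18.1% (SD 4.27, n = 6), in astrocytes, with 21.5% (SD 6.96), and in microglia, with 22.4% (SD 3.68), against 9.89% (SD 1.02) in pericytes, where *Junb* had 15.6% (SD 2.40). *Atf3* took 17.8% (SD 2.75) in contralateral microglia and 7.99% (SD 3.77) in astrocytes. *Fosb*, *Fosl1*, *Fosl2*, *Maff* and *Batf* each had a mean share under that of *Atf3* in every group. The share of *Fosl1* was 0.02% to 2.70% in contralateral and 1.94% to 3.63% in ipsilateral astrocytes.

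**Figure D2:**
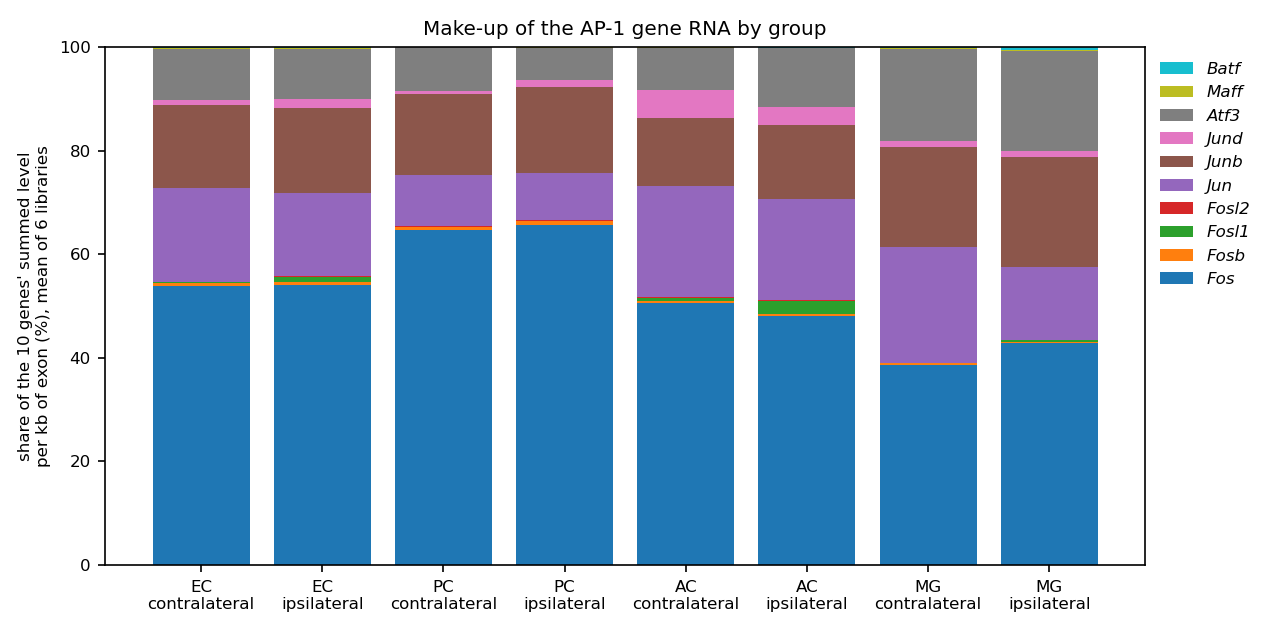
Share of each gene in the summed level per kb of exon of the 10 genes (%), as the mean of 6 libraries in each of 8 groups. Fos makes up 64.7% in contralateral pericytes and 38.6% in contralateral microglia.

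The stroke change was tested separately per cell type with limma, 6 ipsilateral against 6 contralateral libraries, on the log2 of the normalized count + 1. Genes averaging 10 normalized counts or more were tested, and all 10 members passed that filter in all 4 cell types. A gene was called when its adjusted p was at most 0.05, its change at least 1.5-fold, and its value above 10 in all 6 replicates of 1 hemisphere. Among endothelial cells 1 of 10 members was called higher, where 0.362% of all 13242 genes were higher and 0.128% lower. In pericytes no member was called by limma, where 0.441% of all 13597 genes were higher and 0.581% lower, and 2 members had an unadjusted p under 0.05, as had 15.4% of all genes. In astrocytes 1 member was called higher, where 0.334% of all 15264 genes were higher and 0.00655% lower. In microglia 1 member was called higher and 3 lower, where 4.29% of all 13300 genes were higher and 6.27% lower. The median log2 change of the members was 0.05, 0.20, 0.63 and -0.86 in endothelial cells, pericytes, astrocytes and microglia, and that of all genes tested -0.03, -0.04, -0.06 and -0.18. With the replicate number as a block, 2 members were called in pericytes and 5 in microglia, where 1.66% and 11.04% of all genes were called.

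**Figure D3:**
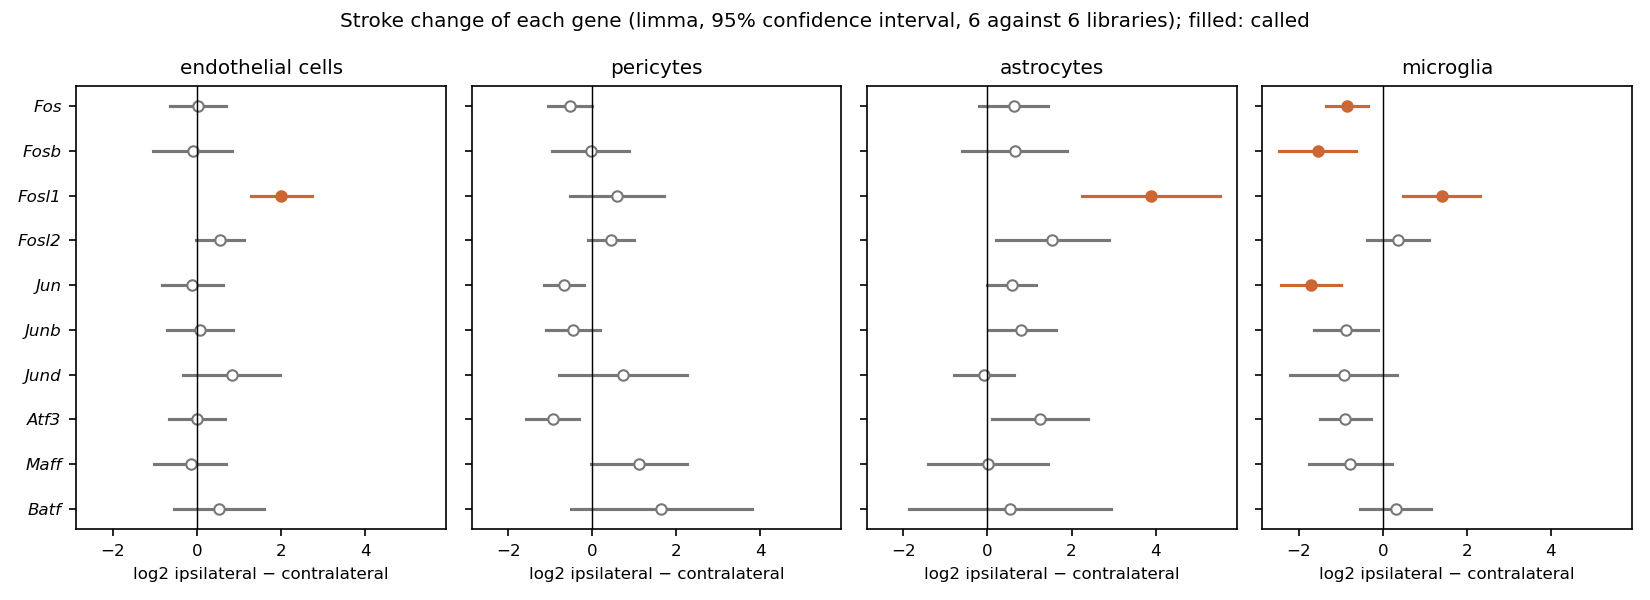
Log2 difference, ipsilateral minus contralateral, of each of the 10 genes in the 4 cell types, with its 95% confidence interval from limma over 6 against 6 libraries; filled orange points mark called genes. Fosl1 is to the right of 0 in endothelial cells (2.01), astrocytes (3.88) and microglia (1.4), while Fos (-0.86), Fosb (-1.55) and Jun (-1.70) are to the left in microglia.

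*Fosl1* was the member called higher in the ischemic hemisphere of 3 cell types. In endothelial cells it had 83 to 317 normalized counts in the contralateral libraries (median 169) and 489 to 961 in the ipsilateral libraries (median 733.5), so the ranges did not overlap. Its log2 change was 2.01 (SE 0.34, limma adjusted p = 0.0187), a fold of 4.02, with all 6 pairs of hemispheres higher on the ipsilateral side. Without replicate 3, 4, 5 or 6 the call was lost, with limma adjusted p from 0.0238 to 0.139 over the 6 replicates left out, and from replicates 1 to 4 alone the change was 1.80 (SE 0.42, limma adjusted p = 0.213). In replicates 5 and 6, whose endothelial libraries held little microglial RNA, *Fosl1* went from 83 to 553 and from 183 to 803 normalized counts.

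In astrocytes *Fosl1* had 4, 12, 46, 59, 67 and 352 normalized counts on the contralateral side, sorted by size, and 401 to 793 on the ipsilateral side. Again the ranges did not overlap, and the lone value of 352 belonged to replicate 6. The log2 change was 3.88 (SE 0.77, 95% interval 2.24 to 5.53, limma adjusted p = 0.0466), and all 6 pairs were higher on the ipsilateral side, by 1.01 to 7.31. The call was lost without any of replicates 1 to 5 (limma adjusted p up to 0.29) and kept without replicate 6 (0.00672), and it was lost with a pseudocount of 0.1, without a filter and with a filter at a mean of 50. With a replicate left out, the log2 change ran from 3.2 (without replicate 4) to 4.46 (without replicate 6). In contralateral replicate 4, with 4 normalized counts, 3 reads correspond to 3.29 normalized counts, so the largest pair difference rests on few reads.

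In microglia *Fosl1* had 27 to 162 normalized counts on the contralateral and 127 to 243 on the ipsilateral side, with overlapping ranges. The log2 change was 1.4 (SE 0.43, limma adjusted p = 0.0472), with 6 of 6 pairs higher, and the call was lost without replicate 1, 3, 4, 5 or 6 (limma adjusted p up to 0.154) and from replicates 1 to 4 alone (0.239). It was also lost with a pseudocount of 0.1 (limma adjusted p = 0.0527), without a filter (0.0694) and when the 48 libraries were fitted together (0.123). In pericytes it had 36 to 126 and 30 to 235 normalized counts, and its log2 change of 0.59 had a 95% interval of -0.53 to 1.71 (limma adjusted p = 0.625), with 5 of 6 pairs higher. *Ccdc85b*, annotated over part of *Fosl1* on the other strand, had log2 changes of -0.23 (SE 0.25, limma adjusted p = 0.773) in endothelial cells, -0.64 (SE 0.21, 0.158) in pericytes, 0.03 (SE 0.27, 0.988) in astrocytes and 0.17 (SE 0.29, 0.729) in microglia.

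In microglia *Jun*, *Fos* and *Fosb* were called lower on the ipsilateral side. *Jun* had 46219, 57315, 58394, 116961, 45498 and 37033 normalized counts in contralateral replicates 1 to 6 and 18687, 6818, 16186, 18513, 29792 and 22456 in the ipsilateral ones. Each contralateral library was above all ipsilateral libraries. *Jun* fell by 1.70 on the log2 scale (SE 0.34, limma adjusted p = 0.0057), 0.31 of its contralateral level, in 6 of 6 pairs. The call held without each replicate in turn, with limma adjusted p from 0.00476 to 0.0378, and from replicates 1 to 4 alone, where the change was -2.22. In replicates 5 and 6 the pair differences were -0.61 and -0.72.

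*Fos* and *Fosb* also fell in microglia, with ranges that overlapped between hemispheres. *Fos* had 50056 to 101622 normalized counts contralaterally (median 69861.5) and 31919 to 54955 ipsilaterally (median 38198.5), with an overlap of the lowest contralateral and the highest ipsilateral library. It fell by 0.86 on the log2 scale (SE 0.23, limma adjusted p = 0.0299) and was lower in 6 of 6 pairs. *Fosb* had 674 to 3274 normalized counts contralaterally (median 1748.5) and 258 to 1080 ipsilaterally (median 458), fell by 1.55 (SE 0.43, limma adjusted p = 0.0318) and was lower in 6 of 6 pairs, most so in replicate 4 (-3.28). The *Fos* call was lost without replicate 1, 3, 4, 5 or 6 (limma adjusted p up to 0.12) and the *Fosb* call without replicate 1, 3, 4 or 6 (up to 0.14), and both were lost from replicates 1 to 4 alone, at -1.04 (limma adjusted p = 0.0671) and -1.75 (0.0797), and when the 48 libraries were fitted together (0.0629 and 0.0544).

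*Atf3* and *Junb* in microglia were called only under other settings. *Atf3* had 34234, 26907, 24177, 53399, 31454 and 19363 normalized counts in contralateral replicates 1 to 6 and 17537, 12306, 9156, 15689, 28022 and 20088 in the ipsilateral ones. Its log2 change was -0.90 (SE 0.28, limma adjusted p = 0.0545), and it was called with the replicate block (limma adjusted p = 0.0453, from 0.0348 to 0.174 over all alternatives), with a pseudocount of 10 (0.0474), with a filter at a mean of 50 (0.0429) and without replicate 5 (0.0496). Replicates 5 and 6 stood apart, with pair differences of -0.17 and 0.05 against -0.96 to -1.77 in replicates 1 to 4. *Junb* showed the same split, with pair differences of -0.91, -2.28, -0.65, -2.0, 0.11 and 0.50 in replicates 1 to 6 and a log2 change of -0.87 (SE 0.36, limma adjusted p = 0.125). From replicates 1 to 4 alone, both were called, *Atf3* at -1.32 (limma adjusted p = 0.0348) and *Junb* at -1.46 (0.0365). *Prdx2*, annotated over part of *Junb* on the other strand, had 830 to 1384 contralateral and 1253 to 2820 ipsilateral normalized counts in microglia (0.65, SE 0.21, limma adjusted p = 0.0541), and *Junos*, over part of *Jun*, had 0 to 5 on either side.

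**Figure D4:**
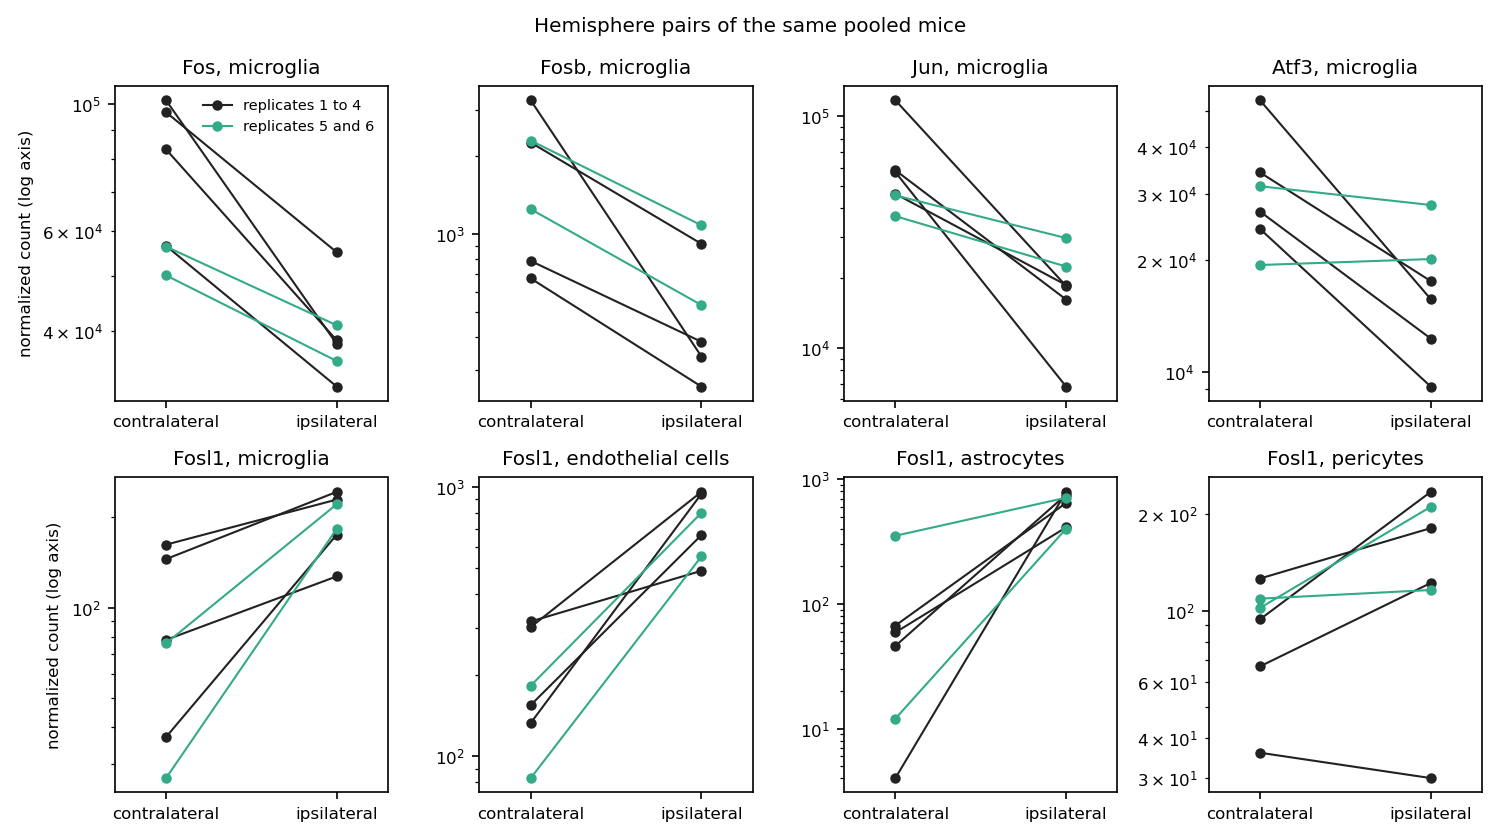
Normalized counts (log axis, a separate scale in each panel) of Fos, Fosb, Jun and Atf3 in microglia and of Fosl1 in the 4 cell types, with a line joining the contralateral and the ipsilateral library of the same pooled mice, in black for replicates 1 to 4 and green for replicates 5 and 6. Jun fell in 6 of 6 microglial pairs, with 37033 to 116961 contralaterally and 6818 to 29792 ipsilaterally, whereas Fosl1 was higher in 6 of 6 pairs of endothelial cells, astrocytes and microglia.

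Some marker sums moved with the hemisphere in the microglial libraries. The summed level of 15 genes of microglial identity was 831316 to 929431 contralaterally and 465362 to 776809 ipsilaterally, with no overlap. The sum of 10 monocyte and macrophage markers was 347 to 1787 (median 1096) and 1409 to 6955 (median 2749). That of 10 neutrophil markers was 6423 to 8037 (median 7234) and 4388 to 19551 (median 5148.5), so its median was lower ipsilaterally. Both sums overlapped between hemispheres. At most 2 of the 10 neutrophil markers were at 0 in all 6 libraries of a microglial group. The part of these shifts in the fall of *Fos*, *Fosb* and *Jun* was not tested, and in such bulk samples fewer cells of a type and less RNA per cell cannot be told apart.

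In pericytes, where no member was called without the block, *Jun* and *Atf3* were called with it. *Jun* had 22972 to 41360 normalized counts contralaterally and 11974 to 26916 ipsilaterally, with a log2 change of -0.67 (SE 0.22, limma adjusted p = 0.166) that was negative in 6 of 6 pairs. With the replicate block its limma adjusted p was 0.0416, at the lower end of 0.0416 to 0.406 over the alternatives. *Atf3* had 8621 to 28195 normalized counts contralaterally and 6323 to 15637 ipsilaterally, with a log2 change of -0.94 (SE 0.29, limma adjusted p = 0.143), negative in 6 of 6 pairs, and with the block 0.0344 (0.0344 to 0.42 over the alternatives). *Fos* in pericytes was also lower in 6 of 6 pairs, by 0.25 to 0.83, with a log2 change of -0.52 (95% interval -1.04 to 0.00, limma adjusted p = 0.324, with the block 0.156). Pairs of replicates 5 and 6, almost free of microglial RNA, gave -0.49 and -0.94 for *Jun* and -0.70 and -1.15 for *Atf3*.

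In endothelial cells no member other than *Fosl1* was called, and the intervals of the others still allow changes. *Fos* had 28416 to 86350 normalized counts contralaterally and 35429 to 80827 ipsilaterally, and its log2 change of 0.03 had a 95% interval of -0.63 to 0.70 (limma adjusted p = 0.989). The log2 changes of *Jun*, *Junb* and *Atf3* were -0.11, 0.07 and 0.00, each with an SE between 0.31 and 0.37.

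In astrocytes 9 of 10 members had a positive log2 change, of which 4 had an unadjusted p under 0.05 against 9.3% of all genes, and only *Fosl1* was called. *Atf3* had 375 to 3610 normalized counts contralaterally and 1229 to 5648 ipsilaterally, with a log2 change of 1.25 (SE 0.54, limma adjusted p = 0.506). *Fosl2* had 5 to 102 and 63 to 122 normalized counts, with 1.54 (SE 0.62, limma adjusted p = 0.48) and 6 of 6 pairs higher. Contralateral replicate 3 was the lowest astrocyte library of its group for *Fos* (3088), *Fosb* (38), *Junb* (943), *Jund* (422), *Atf3* (375) and *Fosl2* (5), and its pair held the largest differences of these 6 genes, from 1.61 for *Jund* to 4.36 for *Fosl2*. Without replicate 3 the log2 change of *Atf3* was 0.75, that of *Fosl2* 0.97, that of *Fos* 0.26 in place of 0.62, that of *Fosb* 0.11 in place of 0.65 and that of *Junb* 0.45 in place of 0.81.

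The remaining members were not called in any cell type. The pair differences of *Jund* took both signs in each cell type, from -2.22 to 2.63 in endothelial cells, -2.74 to 3.64 in pericytes, -1.43 to 1.61 in astrocytes and -3.20 to 1.92 in microglia. Its values within 1 group covered 269 to 2365 normalized counts in contralateral endothelial cells. *Maff* had 29 to 65 normalized counts in contralateral and 22 to 162 in ipsilateral pericytes (log2 change 1.11, SE 0.53, limma adjusted p = 0.339), and 83 to 405 and 38 to 224 in microglia (-0.77, SE 0.46, limma adjusted p = 0.299). *Batf* had 0 to 46 and 5 to 133 normalized counts in pericytes, with pair differences of -1.94 to 6.09 (1.64, 95% interval -0.50 to 3.79, limma adjusted p = 0.46) and 144 to 496 and 147 to 654 in microglia (0.31, SE 0.40, limma adjusted p = 0.651). Its pericyte change was 0.75 without replicate 3 and 2.36 without replicate 5, and 2.19 and 1.06 with pseudocounts of 0.1 and 10. The pericyte pair at 6.09 had 0 and 67 normalized counts, so the pseudocount sets the size of that difference. *Fosl2* had 138 to 572 and 266 to 550 normalized counts in microglia (0.37, SE 0.35, limma adjusted p = 0.506), so the 2 *Fos*-related antigen genes and *Batf* were the members whose microglial change was positive.

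Whether the stroke change differed between cell types was tested as an interaction in a fit of all 48 libraries. Of the 10 members, *Jun* alone passed, for astrocytes against microglia, where 0.293% of all 15003 genes passed. The change of *Jun* was higher in astrocytes by 2.28 on the log2 scale (SE 0.44, limma adjusted p = 0.00495): in astrocytes it had 3117 to 9614 normalized counts contralaterally and 4765 to 10409 ipsilaterally, a log2 change of 0.58 (SE 0.27, limma adjusted p = 0.542). Without replicate 3 or without replicate 4 this difference was no longer called, at 2.16 (limma adjusted p = 0.12) and 2.02 (0.0795). With the replicate block, *Fos* (1.47, SE 0.35, limma adjusted p = 0.0354, 0.0354 to 0.601 over the alternatives) and *Atf3* (2.14, SE 0.51, limma adjusted p = 0.0365, 0.0365 to 0.644) passed as well. No member passed for the other pairs of cell types by limma, where 0.0267% of all genes passed for endothelial cells against pericytes, 0.06% for endothelial cells against astrocytes, 0.273% for endothelial cells against microglia, 0.00667% for pericytes against astrocytes and 0.727% for pericytes against microglia. The rise of *Fosl1* in 3 cell types was not shown to differ from pericytes, with a pericyte-minus-astrocyte difference of -3.29 (SE 0.81, limma adjusted p = 0.178).

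Other genes of the same response were examined in lists of named genes. All lists were chosen with earlier results of these data known, so their counts are no independent evidence. Of 26 other immediate early genes tested in microglia, 7 were called lower and none higher, where 6.27% and 4.29% of all genes were, and their median log2 change was -0.74 against -0.18 for all genes. They included *Egr3*, a zinc finger factor of the EGR family, with 45 to 143 contralateral and 0 to 84 ipsilateral normalized counts (-2.81, SE 0.87, limma adjusted p = 0.0493), *Per1*, a clock gene, with 994 to 2915 and 154 to 692 (-1.53, SE 0.36, 0.0142), and *Egr1*, with 24177 to 76957 and 8064 to 27058 (-1.29, SE 0.31, 0.0163). In endothelial cells and pericytes none of 26 was called, and in astrocytes, where 0.334% of all genes were higher, 1 was, *Gadd45b*, a stress-induced regulator of MAP kinases, with 240 to 1164 contralateral and 1283 to 8385 ipsilateral normalized counts (2.68, SE 0.50, limma adjusted p = 0.0393). With the block, 4 of the 26 were called higher in astrocytes, where 1.25% of all genes were, and 8 lower in microglia, where 6.5% were.

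Genes that damp or drive the MAP kinase cascade upstream of AP-1 were counted in the same way. Of 18 feedback genes, 4 were called lower in microglia and none higher, where 6.27% and 4.29% of all genes were, with a median log2 change of -0.86 against -0.18 for all genes. With the block 6 were lower in microglia, where 6.5% of all genes were, and 1 was higher in astrocytes, where 1.25% were. *Spry1*, an inhibitor of receptor tyrosine kinase signalling, had 130 to 496 contralateral and 14 to 141 ipsilateral normalized counts (-1.85, SE 0.51, limma adjusted p = 0.031), *Zfp36l2*, a factor of mRNA decay, 1151 to 2766 and 312 to 915 (-1.61, SE 0.29, 0.00343), and *Dusp8*, a MAP kinase phosphatase, 166 to 407 and 43 to 287 (-1.48, SE 0.43, 0.0386). Of 32 kinases and factors upstream, *Mapk14*, which encodes the p38α kinase (-1.07, SE 0.28, limma adjusted p = 0.0255), and *Mef2c* (-0.83, SE 0.17, 0.00656) were called lower in microglia, near the 6.27% of all genes that were lower. With the block 4 were lower, against 6.5% of all genes. In pericytes, where 0.441% of all genes were higher, 1 of 32 upstream genes was called. This was *Map2k3* (0.92, SE 0.19, limma adjusted p = 0.0374), though not from replicates 1 to 4 alone, where 0.184% of all genes were higher. None of either list was called in endothelial cells or astrocytes without the block.

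Among other bZIP factors, 2 of 28 were called higher and 4 lower in microglia, where 4.29% and 6.27% of all genes were. From replicates 1 to 4 alone 2 were higher and none lower, where 2.61% and 3.34% of all genes were. *Nfil3*, a repressor, had 247 to 567 contralateral and 1149 to 1880 ipsilateral normalized counts (1.91, SE 0.23, limma adjusted p = 0.000213) and *Crem*, a cAMP-responsive factor, 71 to 231 and 254 to 440 (1.45, SE 0.29, 0.00618). *Bach2*, a repressor that pairs with small MAF proteins, had 131 to 414 and 52 to 131 (-1.58, SE 0.34, 0.00866). In pericytes, where 0.441% of all genes were higher, 1 of 26 was called, but not from replicates 1 to 4 alone, where 0.184% were. This was *Xbp1*, a factor of the unfolded protein response, which had 2060 to 2945 and 3672 to 6090 normalized counts (0.83, SE 0.14, limma adjusted p = 0.0176). None of the 27 tested was called in endothelial cells or astrocytes, though 2 were called higher in astrocytes with the block, where 1.25% of all genes were. From replicates 1 to 4 alone 1 was called higher in astrocytes, where 0.314% of all genes were.

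Some genes with described AP-1 sites were called higher in each cell type, though most of the list was not called in any 1 of them. The list was put together with earlier results of these data known, so its direction is no independent evidence. In microglia 13 of 27 were higher and none lower, in astrocytes 7 of 30, in pericytes 6 of 29 and in endothelial cells 3 of 26, where 4.29%, 0.334%, 0.441% and 0.362% of all genes were higher. From replicates 1 to 4 alone the numbers were 10, 9, 1 and 2, against 2.61%, 0.314%, 0.184% and 0.0745% of all genes. With the block 13, 12, 11 and 6 were higher, against 4.54%, 1.25%, 0.684% and 0.378% of all genes, and 1 was lower in pericytes, against 0.978%. *Spp1*, which encodes osteopontin, had 2594 to 9637 contralateral and 87954 to 707269 ipsilateral normalized counts in microglia (5.68, SE 0.46, limma adjusted p = 5.8e-06), and *Cd44*, a receptor of it, 35 to 166 and 631 to 2342 (4.02, SE 0.37, 2.1e-05). *Hmox1*, heme oxygenase 1, had 133 to 552 and 1369 to 4966 normalized counts in endothelial cells (3.11, SE 0.40, limma adjusted p = 0.00341) and 190 to 667 and 3746 to 5367 in astrocytes (3.49, SE 0.27, 5.1e-05). *Sphk1*, sphingosine kinase 1, had 0 to 216 and 531 to 838 normalized counts in astrocytes (5.75, SE 1.01, limma adjusted p = 0.0269). Its means were 49.67 contralaterally and 715.5 ipsilaterally, and with a contralateral value of 0 the size of its log2 change depends on the pseudocount. The cytokine gene *Il11* had 0 to 8 contralateral and 27 to 548 ipsilateral normalized counts in pericytes, so its log2 change of 5.92 (SE 0.99, limma adjusted p = 0.0158) rests on few contralateral reads. The cytokine gene *Il6* had 108 to 450 and 1235 to 5110 normalized counts in pericytes (3.5, SE 0.42, limma adjusted p = 0.00379), and *Plaur*, the urokinase receptor, 843 to 3794 and 5050 to 8584 in endothelial cells (1.79, SE 0.30, 0.0187). Of 14 heat shock genes, *Hspd1*, a mitochondrial chaperonin, was called higher in microglia (0.79, SE 0.14, limma adjusted p = 0.00274), where 4.29% of all genes were, and none was called in the other 3 cell types without the block. With the block 1 was higher and 3 lower in microglia, where 4.54% and 6.5% of all genes were, and 1 was higher in astrocytes, where 1.25% were. From replicates 1 to 4 alone 1 was higher in astrocytes as well, where 0.314% of all genes were.

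As a description, the changes of the members were set against those of 11853 genes over the 24 pairs of hemispheres, which share the operated mice and the libraries' depth. These pairs come from 4 cell types whose mean changes differ. The values of r therefore mix differences between cell types with differences among replicates, which were not separated. The genes most like *Fos* were *Atf3* (Pearson's r = 0.931), *Dusp1*, a MAP kinase phosphatase (0.891), and *Junb* (0.874). For *Jun* they were *Egr1* (0.905), *Adamts1* (0.901) and *Ppp1r15a* (0.901), and for *Junb* they were *Egr1* (0.925), *Ier2* (0.915) and *Jun* (0.90). For *Atf3* they were *Fos*, *Egr2* (0.866) and *Ccrl2* (0.854), and for *Fosb* they were *Ttc7* (0.827), *Ppp1r18* (0.821) and *Egr1* (0.82). *Fosl1* was most like *Atf3* (0.758), then *Tnfrsf12a* (0.737) and *Atp8b1* (0.73). *Fosl2* was most like *Bst2* (0.79), *Ier3* (0.759) and *Krcc1* (0.753). The closest genes of the other 3 were not members: *Klf2* (0.932), *Gsk3a* (0.923) and *Cited2* (0.922) for *Jund*, *Acvr2b* (0.742), *Arid1a* (0.731) and *Cracr2b* (0.72) for *Maff*, and *Pafah1b3* (0.773), *Nudt1* (0.729) and *Rbks* (0.724) for *Batf*.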

How the data were processed

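RNA of sorted NVU cells was sequenced in 48 libraries from about 250 pg of RNA each. The authors trimmed reads with Trimmomatic 0.38, aligned them to GRCm38 with STAR 2.6.1d, counted reads on exons of single genes with featureCounts 1.6.3 and normalized the counts with DESeq2 1.18.1. The deposited values are a score, namely the counts that the authors had divided by a size factor per library and rounded, so no count test was run. Coordinates and names are those of the deposited table. Exon lengths are from GENCODE release M21.

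From these values, two-sided tests were computed with limma 3.58.1 in R 4.3.3 (lmFit and eBayes, trend = TRUE), per cell type without a block, and in 1 fit of 48 libraries for contrasts between cell types, with Benjamini-Hochberg adjustment over all genes tested. The scripts were tested on simulated data. Hemispheres of 1 replicate number come from the same pooled mice. Their deviations from the group means correlated by 0.207, 0.21, 0.375 and 0.115 on average in endothelial cells, pericytes, astrocytes and microglia, against -0.037, -0.042, -0.075 and -0.022 for different numbers, and values with the replicate number as a fixed term are given where they change the call of a member or the count of a list. Alternatives were the block, pseudocounts of 0.1 and 10, rescaling per cell type, a joint fit, a filter at a mean of 50 or none, calls without the expression rule or without the fold minimum, replicates 1 to 4 alone, leaving out each replicate, and grouping by the titles. The counts of list genes from replicates 1 to 4 alone were added after seeing the data. Members and lists were chosen with earlier results of these data known. All 10 members are named, from each list up to 3 called genes with the largest change per cell type, and the 3 genes most like each member. Depth was estimated from the worth of 1 read, and floors cover counting error only. Python 3.11.15 with pandas 2.3.3, numpy 2.4.6 and matplotlib 3.10.9 gave summaries and figures.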

Additional observations from a re-analysis of the deposited data

Results flagged for a closer look

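Each of 80 groups of 6 values, 10 genes in 8 groups of libraries, was examined for a value far from the rest, and 8 values were found. The measure was the gap to the next value over the range of the 6 normalized counts, not of their logs. All 8 were the highest of their group. How many groups chance alone would single out among such counts was not determined. In contralateral astrocytes these were *Fosl1* in replicate 6, at 352 normalized counts against 4 to 67 in the others, *Jun* in replicate 2, at 9614 against 3117 to 5480, and *Junb* in replicate 2, at 5684 against 943 to 2463. In contralateral microglia they were *Jun* in replicate 4, at 116961 against 37033 to 58394, and *Maff* in replicate 4, at 405 against 83 to 186. In contralateral endothelial cells they were *Maff* in replicate 2, at 840 against 159 to 261, and *Batf* in replicate 3, at 194 against 52 to 93. The last was *Fosl2* in replicate 5 of ipsilateral microglia, at 550 against 266 to 363. Contralateral microglia replicate 4 also had the highest values of its group for *Fos*, *Fosb*, *Junb* and *Atf3*.

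The stroke change of *Jun* differed between astrocytes and microglia by 2.28 on the log2 scale (limma adjusted p = 0.00495).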

How the results depend on the processing

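Over 40 changes of members, 636 values under alternatives were computed, of which 568 kept direction and call. Direction turned in 25, each of a change that was not called. Among these, *Fosb* in pericytes was 0.02 after rescaling, *Maff* in astrocytes -0.01 with a pseudocount of 10, and, from replicates 1 to 4 alone, *Fos*, *Junb* and *Atf3* in endothelial cells were -0.25, -0.10 and -0.23 and *Jund* in pericytes -0.09. With a replicate left out, the log2 changes covered *Fos* in endothelial cells -0.14 to 0.14, *Fosb* in endothelial cells -0.34 to 0.25, *Jun* in endothelial cells -0.36 to 0.12, *Junb* in endothelial cells -0.13 to 0.26, *Atf3* in endothelial cells -0.16 to 0.10, *Maff* in endothelial cells -0.31 to 0.13, *Fosb* in pericytes -0.32 to 0.13, *Jund* in astrocytes -0.43 to 0.18, *Maff* in astrocytes -0.24 to 0.15 and *Batf* in astrocytes -0.32 to 1.25. The number of members called was 0 in endothelial cells from replicates 1 to 4 alone, where 0.0745% of all genes were called higher and 0.00745% lower. With a replicate left out it was 0 to 1 in these cells. In pericytes it was 2 with the replicate block and 7 with the cell types of the titles, which compare libraries of different cell types by their markers. In astrocytes it was 0 with a pseudocount of 0.1, with no filter and with a mean of at least 50, and 0 to 1 with a replicate left out. In microglia it was 1 in the joint fit and 1 to 4 with a replicate left out, with 1 without replicate 1, 3, 4 or 6. The number of differences between cell types in the stroke change was 3 with the replicate block and 0 to 1 with a replicate left out. The cause of these shifts was not tested. With the replicate block for the pairing, no call of a member changed except those of *Jun* and *Atf3* in pericytes, of *Atf3* in microglia, and of *Fos*, *Fosb* and *Atf3* between cell types, whose values stand beside them. Depth limits *Batf* in astrocytes and pericytes, where it was at 0 in 3 libraries and 1 library, and 3 reads correspond to at most 3.33 and 4.02 normalized counts.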
